A study of Mus musculus with 24 samples.

Results

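The genes described here are 10 genes of growth arrest and DNA damage: Cdkn1a, Ccng1, Mdm2, Gdf15, Trp53inp1, Bax and Pmaip1, which are targets of p53, and the stress sensors Gadd45a, Gadd45b and Gadd45g. They were chosen by symbol, and 8 of the 10 had at least 1 probe named on the array, 20 probes in all, of 45281 probes and 18766 named genes. Gdf15 and Bax were not analysed here. Of the 20 probes, 16 were detected (detection p under 0.01) on at least 1 array. The brightest probe stands for its gene unless another is named. Another Gadd45b probe, another Mdm2 probe and a pair of Pmaip1 probes were not above background on any array. The study profiled whole kidneys of 24 FVB mice, 1 array per mouse. Mutant mice, TgUmodC147W, carried a transgene for uromodulin with the C147W change, and control mice, TgUmodwt, carried the same transgene with wild type uromodulin, both under a Umod promoter fragment and beside the endogenous Umod gene, so that the mutant protein was set against a wild type transgene and not against its absence. There were 4 mice of each genotype in males of 1 month (M1), females of 1 month (F1) and females of 2 months (F2). Levels are log2 normalised intensities, and differences are on the same log2 scale.

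Between 35.3 and 39.6% of probes were detected per array. In M1 the 4 TgUmodC147W arrays (38.4 to 39.6%) lay above the 4 TgUmodwt arrays (35.3 to 36.4%). The same held in F1 (37.3 to 38.3% against 35.9 to 36.8%), and the F2 groups overlapped (36.6 to 37.6% against 35.8 to 37.6%). Median intensities before normalisation were 139.7 to 176.6 on the 8 F2 arrays and 114.6 to 130.8 on the 8 F1 arrays, without overlap. The mean level of 4 markers of the thick ascending limb, the segment that makes uromodulin, was higher in each mutant group than in its controls, at 13.50 to 13.70 against 13.03 to 13.18 in M1, 13.49 to 13.74 against 13.23 to 13.41 in F1 and 13.49 to 13.63 against 13.21 to 13.40 in F2. That of 5 proximal tubule markers was lower in M1 (13.33 to 13.48 against 13.60 to 13.67) and F1 (13.10 to 13.40 against 13.50 to 13.70), and overlapped in F2. That of 4 fibroblast and smooth muscle markers was higher, at 10.00 to 10.32 against 9.00 to 9.22 in M1, 10.00 to 10.52 against 9.12 to 9.27 in F1 and 9.40 to 9.69 against 8.37 to 8.86 in F2. Of the thick ascending limb genes 3 of 4 rose in M1, 1 in F1 and 0 in F2 (limma, adjusted p under 0.05). Of all genes 21.9, 10.4 and 5.39% rose. Umod did not pass (0.12, 0.09 and 0.11), and Cldn16 was at 0.86, 0.74 and 0.59. Of the proximal tubule genes 1 of 5 fell in M1, 2 in F1 and 0 in F2, beside 15.5, 7.62 and 3.07% of all. In M1 this was Slc22a6 (-1.02), while Slc34a1, Lrp2, Cubn and Slc5a2 were at -0.02, -0.03, -0.05 and -0.19. In F1 Slc5a2 (-0.54) and Slc22a6 (-0.45) fell. Means of 2 endothelial markers were higher in each mutant group, and those of 2 distal convoluted tubule markers higher in M1 and lower in females. Of these 2 genes Pvalb was at -0.41 in F1 and -0.24 in F2, whereas Slc12a3 was not lower (0.02 and 0.15). The mean of 2 red cell markers was lower in F2 mutants (10.87 to 12.19 against 12.83 to 13.33). Of these 2 genes 2 fell in F2, and 1 rose in M1. Of 4 collecting duct markers 2 rose in M1, 1 in F1 and 0 in F2, where 1 fell. The part of these shifts in the values of the members was not tested. Of 5 named T and B cell markers, 4 (Cd3e, Cd5, Cd4 and Cd8a) were not detected. Xist, expressed from the inactive X chromosome of female cells, measured 4.85 on the array labelled TgUmodC147W F1 replicate 2, like the males, and 11.66 to 12.17 on the other F1 arrays, so that the calls in F1, and the values resting on it, are also given without that array. The labels number the mice within groups and do not say whether they came from separate litters.

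p53 is a transcription factor that DNA damage and other stresses stabilise, and its targets halt the cell cycle, repair DNA or start apoptosis. Cdkn1a blocks cyclin-dependent kinases, Ccng1 (cyclin G1) and Mdm2 feed back on p53, Mdm2 by ubiquitinating it, Trp53inp1 is a stress-induced partner of p53, and Pmaip1 (Noxa) is a BH3-only protein that promotes apoptosis. The Gadd45 proteins bind and activate the MTK1 kinase upstream of p38 and JNK and interact with PCNA. Several of these genes also answer to signals other than p53. In kidney tubules Cdkn1a is a known gene of injury and of cell cycle arrest.

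p53 binds pairs of decamer half-sites. RefSeq windows of the 250 bases before the annotated start (GRCm38.p6) were found for 6 of the 8 measured genes, Cdkn1a having 2 such windows. Those of Gadd45g, which did not pass the test in males, and of the downstream start of Cdkn1a are not shown. Of the 5 shown, Cdkn1a and Gadd45b rose in males, Ccng1 fell, and Mdm2 and Gadd45a did not pass. The sequences read from 5′ to 3′, and capitals mark the p53 half-site by its consensus on both strands (it is its own reverse complement) and any adjoining half-site with exactly 1 mismatch. They lie at chr17:29090729-29090978 (plus strand) for the upstream start of Cdkn1a, chr11:40755287-40755536 (minus strand) for Ccng1, chr10:117710759-117711008 (minus strand) for Mdm2, chr6:67037408-67037657 (minus strand) for Gadd45a and chr10:80929841-80930090 (plus strand) for Gadd45b.
Cdkn1a: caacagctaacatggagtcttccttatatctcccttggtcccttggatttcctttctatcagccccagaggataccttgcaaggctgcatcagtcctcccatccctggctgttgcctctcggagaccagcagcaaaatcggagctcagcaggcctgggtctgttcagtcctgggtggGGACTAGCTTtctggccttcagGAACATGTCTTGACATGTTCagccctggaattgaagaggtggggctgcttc
Ccng1: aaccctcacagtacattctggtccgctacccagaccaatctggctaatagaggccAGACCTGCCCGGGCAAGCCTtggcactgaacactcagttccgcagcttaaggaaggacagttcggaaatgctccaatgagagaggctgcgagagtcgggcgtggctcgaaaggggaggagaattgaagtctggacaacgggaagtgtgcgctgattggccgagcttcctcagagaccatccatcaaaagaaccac
Mdm2: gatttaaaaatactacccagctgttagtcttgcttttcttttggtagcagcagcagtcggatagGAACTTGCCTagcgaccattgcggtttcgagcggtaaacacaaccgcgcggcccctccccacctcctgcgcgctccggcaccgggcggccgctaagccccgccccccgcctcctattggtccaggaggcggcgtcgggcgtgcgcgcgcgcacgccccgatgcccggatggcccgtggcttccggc
Gadd45a: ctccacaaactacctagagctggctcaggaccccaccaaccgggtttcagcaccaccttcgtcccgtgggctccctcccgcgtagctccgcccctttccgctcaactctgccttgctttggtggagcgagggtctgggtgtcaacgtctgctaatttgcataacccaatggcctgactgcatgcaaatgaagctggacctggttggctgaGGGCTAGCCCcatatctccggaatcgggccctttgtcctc
Gadd45b: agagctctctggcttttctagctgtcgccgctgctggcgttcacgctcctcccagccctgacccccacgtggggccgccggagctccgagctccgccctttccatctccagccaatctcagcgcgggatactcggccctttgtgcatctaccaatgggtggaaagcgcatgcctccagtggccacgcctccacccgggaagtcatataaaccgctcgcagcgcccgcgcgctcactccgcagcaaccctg

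A half-site was present in 7.13% of 32851 such mouse windows, and a half-site beside one with 1 mismatch in 0.0487% (16 windows). Cdkn1a held the latter at 51 to 32 bases before the start (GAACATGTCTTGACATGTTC) and Ccng1 at 195 to 176 bases before it (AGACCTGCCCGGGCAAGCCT). Mdm2 and Gadd45a held a lone half-site, and the windows of Gadd45b, Gadd45g and the downstream start of Cdkn1a held none. The octamer motif ATTTGCAT, searched on both strands, was in the windows of Gadd45a (2 matches) and Gadd45g (1 match) and in 1.6% of all windows. These are matches of letters, and no binding was measured.

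The first question was what mutant uromodulin did to these genes in males of 1 month. Of the 8 measured genes, 2 rose (Cdkn1a and Gadd45b) and 2 fell (Ccng1 and Trp53inp1) at an adjusted p under 0.05, 4 of 8 beside 37.4% of the 10134 genes tested (21.9% higher and 15.5% lower). Their median difference was -0.02, beside 0.04 for all genes. The same 4 genes had groups that did not overlap, beside 37.6% of all genes. Kidneys are mixed tissue, in which fewer cells of a type and less RNA per cell cannot be told apart.

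Cdkn1a, the inhibitor that stops cells before DNA synthesis, measured 7.80, 8.47, 8.05 and 7.85 in TgUmodwt M1 and 9.74, 9.15, 8.91 and 9.12 in TgUmodC147W M1. Each mutant male was above each control male. The rise was 2.28-fold, a log2 difference of 1.19 (SE 0.19, 95% interval 0.78 to 1.60; limma, adjusted p = 0.000628), and Cdkn1a was the only member past a 2-fold change. A second probe rose by 0.55 (adjusted p = 0.00761), from 7.55, 7.56, 7.98 and 7.58 to 8.48, 8.01, 8.05 and 8.31, again without overlap. The dimmest probe rose by 0.84 (adjusted p = 0.0217), but was detected on 1 of 4 control arrays and its groups overlapped at 6.90 and 6.92. The 3 probes varied together over the 24 arrays (r of 0.85 to 0.87). With each array left out in turn, the log2 difference of the brightest probe was 1.02 to 1.33, and all 8 fits called it.

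**Figure D1:**
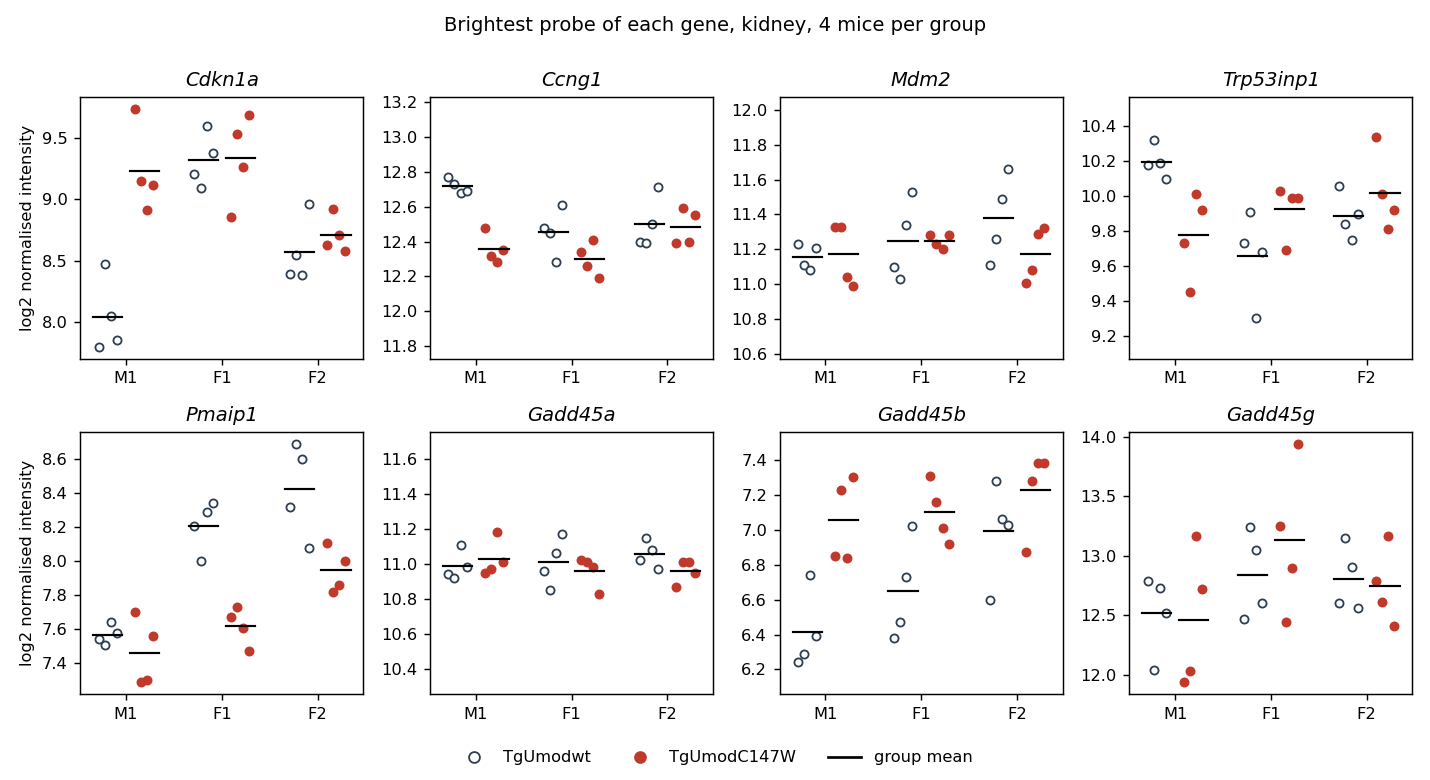
Log2 normalised intensity of the brightest probe of 8 genes on 24 arrays, 4 mice per group, with open points for TgUmodwt, filled points for TgUmodC147W and lines for group means; each panel has its own vertical scale. Cdkn1a is lowest in TgUmodwt M1 (mean 8.04) and at means of 9.23 to 9.33 in the other groups of 1 month, whereas Gadd45a stays near 11.0 in every group.

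Gadd45b, a stress sensor that inflammatory signals also induce, measured 6.24, 6.29, 6.74 and 6.39 in TgUmodwt M1 and 6.85, 7.23, 6.84 and 7.30 in TgUmodC147W M1. The mutant values lay wholly above the controls, and the probe was detected on 1 of 4 control and 4 of 4 mutant arrays. The log2 difference was 0.64 (SE 0.14; limma, adjusted p = 0.0047). The difference was 0.45 in F1 (adjusted p = 0.0624; 0.43 and 0.136 without the array lacking Xist) and 0.23 in F2 (adjusted p = 0.438), neither of which passed, and its interaction with sex was 0.19 (95% interval -0.26 to 0.65, adjusted p = 0.644), so that a difference between the sexes was not shown. Most macrophage markers were higher in the same mutants. Of 7 detected genes of a list of 8, 5 rose in M1, 6 in F1 and 6 in F2. Of the 4 fibroblast and smooth muscle genes 4, 3 and 4 rose. These counts stand beside 21.9, 10.4 and 5.39% of all genes. Csf1r did not pass, at -0.31 in M1, -0.34 in F1 and 0.45 in F2. Adgre1 did not pass in M1 (0.38; limma, adjusted p = 0.0805). The mean level of the macrophage genes was 7.95 to 8.34 in TgUmodwt M1 and 8.70 to 9.20 in TgUmodC147W M1, 8.13 to 8.42 and 8.97 to 9.71 in F1, and 8.14 to 8.46 and 9.48 to 9.66 in F2. Their part in the Gadd45b values was not tested.

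Ccng1, the atypical cyclin that p53 induces, measured 12.77, 12.73, 12.68 and 12.69 in TgUmodwt M1 and 12.48, 12.32, 12.28 and 12.35 in TgUmodC147W M1. All mutant males were below all controls. It fell by 0.36 (SE 0.08; limma, adjusted p = 0.00386), and both dimmer probes fell by 0.50 (adjusted p = 0.00317 and 0.00927), also without overlap. Trp53inp1 measured 10.18, 10.32, 10.19 and 10.10 in TgUmodwt M1 and 9.73, 9.45, 10.01 and 9.92 in TgUmodC147W M1. The groups were again apart, every mutant male below every control. It fell by 0.42 (SE 0.12; adjusted p = 0.0174), but not when TgUmodwt M1 replicate 2 was left out (log2 difference -0.38, adjusted p = 0.0522), and its dimmer probe did not pass (-0.32, adjusted p = 0.294). In the same males 3 of 4 thick ascending limb markers rose and 1 of 5 proximal tubule markers, Slc22a6, fell. The part of this in the Cdkn1a, Ccng1 and Trp53inp1 values was not tested.

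Mdm2, the ubiquitin ligase that removes p53, differed by 0.01 in M1 (95% interval -0.21 to 0.23), Gadd45a by 0.04 (-0.15 to 0.22), Pmaip1 by -0.10 (-0.33 to 0.12) and Gadd45g by -0.06 (-0.63 to 0.52). None passed the test. Gadd45a was the steadiest of the 3 Gadd45 genes, with group means of 10.96 to 11.06 and 24 values between 10.83 and 11.18. Gadd45g was the most variable, from 11.94 to 13.94, with SDs of 0.28 to 0.63 within groups, and its other probe followed the same mice (r = 0.95 over 24 arrays). A second detected Mdm2 probe did not pass either (M1, 0.22, adjusted p = 0.107). Detected probes of one gene ran less closely together for Mdm2 (r = 0.5 over 24 arrays), Gadd45a (0.37) and Trp53inp1 (0.35), and for Ccng1 r was 0.74 to 0.89.

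**Figure D2:**
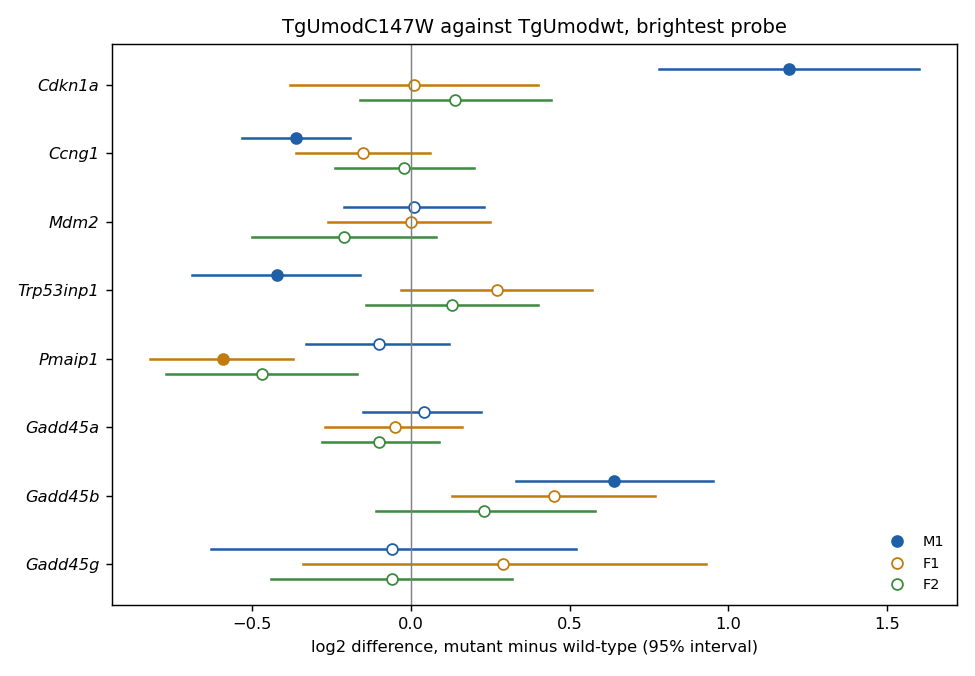
Log2 difference between TgUmodC147W and TgUmodwt for the brightest probe of each gene in M1, F1 and F2, with 95% intervals; filled points passed an adjusted p of 0.05 and open points did not. Cdkn1a is at 1.19 in M1 and at 0.01 and 0.14 in F1 and F2, and Pmaip1 is lower in females, at -0.59 in F1 and -0.47 in F2.

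In females of 1 month 1 of the 8 genes passed the test, Pmaip1, which fell, beside 18.0% of 9973 genes (10.4% higher and 7.62% lower). Without the array lacking Xist Pmaip1 was again the 1 gene that passed, beside 11.9% of 9923 genes (7.06% higher and 4.86% lower). Pmaip1, whose product binds the survival protein MCL1, measured 8.21, 8.00, 8.29 and 8.34 in TgUmodwt F1 and 7.67, 7.73, 7.61 and 7.47 in TgUmodC147W F1. No mutant reached the lowest control. The fall was 1.51-fold (log2 difference -0.59, SE 0.10; limma, adjusted p = 0.00354), and without the array lacking Xist it was -0.63 (adjusted p = 0.00827). Cdkn1a measured 9.21, 9.09, 9.60 and 9.38 in TgUmodwt F1 and 8.86, 9.53, 9.26 and 9.69 in TgUmodC147W F1. Here the groups overlapped fully, with a log2 difference of 0.01 (95% interval -0.38 to 0.40), or -0.05 without the array lacking Xist. The interval does not reach the 0.78 that bounded the male difference from below. Gadd45b passed without TgUmodwt F1 replicate 4 (0.57, adjusted p = 0.0208), whose 7.02 was the highest control value. It did not pass in the other 7 fits that left out 1 array (limma, adjusted p of up to 0.162).

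In females of 2 months none of the 8 genes passed (limma), beside 8.46% of 9856 genes (5.39% higher and 3.07% lower), and 1 had an unadjusted p under 0.05. That was Pmaip1, at 8.32, 8.69, 8.60 and 8.08 in TgUmodwt F2 and 8.11, 7.82, 7.86 and 8.00 in TgUmodC147W F2. A single mutant value exceeded the lowest control. The log2 difference was -0.47 (SE 0.14, adjusted p = 0.0604), and -0.59 without TgUmodwt F2 replicate 4, the lowest control (adjusted p = 0.0209). Pmaip1 did not pass in the other 7 fits that left out 1 array (limma, adjusted p of up to 0.168). Cdkn1a differed by 0.14 (95% interval -0.16 to 0.44).

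The difference between the male and female responses was then tested itself. The response to mutant against wild type uromodulin differed between M1 and F1 in 3 of the 8 genes, beside 7.71% of 10275 genes (limma, 16 arrays). For Cdkn1a the male difference exceeded the female one by 1.18 (SE 0.28, adjusted p = 0.0165), or 1.24 without the array lacking Xist (adjusted p = 0.0187). The dimmer probes gave 0.60 (adjusted p = 0.0634) and 0.95 (adjusted p = 0.0667), which did not pass. Pmaip1 differed by 0.49 (adjusted p = 0.0470; without that array 0.53 and 0.046) and Trp53inp1 by -0.70 (adjusted p = 0.0325; without it -0.78 and 0.0214). The dimmer Trp53inp1 probe did not pass (-0.50, adjusted p = 0.326). Both were near the threshold: with 1 of the 16 arrays left out at a time, Pmaip1 passed in 4 fits and Trp53inp1 in 7, whereas Cdkn1a passed in all 16. For Ccng1 the interaction did not pass on the brightest probe (-0.21, adjusted p = 0.306) or the dimmest (-0.46, adjusted p = 0.103), and did on the second (-0.57, adjusted p = 0.0118).

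These values share the F1 and M1 groups with a further comparison, of males with females within each genotype, which was added after the values had been seen. In TgUmodwt mice of 1 month 4 of the 8 genes differed between the sexes, beside 26.8% of 9702 genes. Cdkn1a was 2.43-fold lower in TgUmodwt males than in TgUmodwt females (log2 difference -1.28, SE 0.15; limma, adjusted p = 0.000208). All 4 control males (7.80 to 8.47) were below all 4 control females (9.09 to 9.60). Pmaip1 was also lower in control males, at 7.51 to 7.64 against 8.00 to 8.34 (-0.65, adjusted p = 0.00041). Trp53inp1 was higher in control males, at 10.10 to 10.32 against 9.30 to 9.91 (0.55, adjusted p = 0.00725), and so was Ccng1, at 12.68 to 12.77 against 12.28 to 12.61 (0.26, adjusted p = 0.0351; not called in 7 of 8 fits that left out 1 array). Both dimmer Ccng1 probes differed, by 0.49 (adjusted p = 0.00142) and 0.37 (adjusted p = 0.0191), whereas the dimmer Trp53inp1 probe did not pass (0.22, adjusted p = 0.215).

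In TgUmodC147W mice of 1 month none of the 8 genes differed between males and females (limma), at an adjusted or an unadjusted p, beside 0.0492% of 10157 genes (5 genes). Cdkn1a differed by -0.10 (95% interval -0.55 to 0.34), Pmaip1 by -0.16 (-0.41 to 0.10), Trp53inp1 by -0.15 (-0.45 to 0.15) and Ccng1 by 0.06 (-0.15 to 0.26). For the first 3 genes the interval excludes the difference measured in the controls. Without the array lacking Xist the values were -0.04 for Cdkn1a, -0.12 for Pmaip1 and -0.23 for Trp53inp1. The difference between these sex differences is the interaction given above, from the same 16 arrays, and not a further test.

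**Figure D3:**
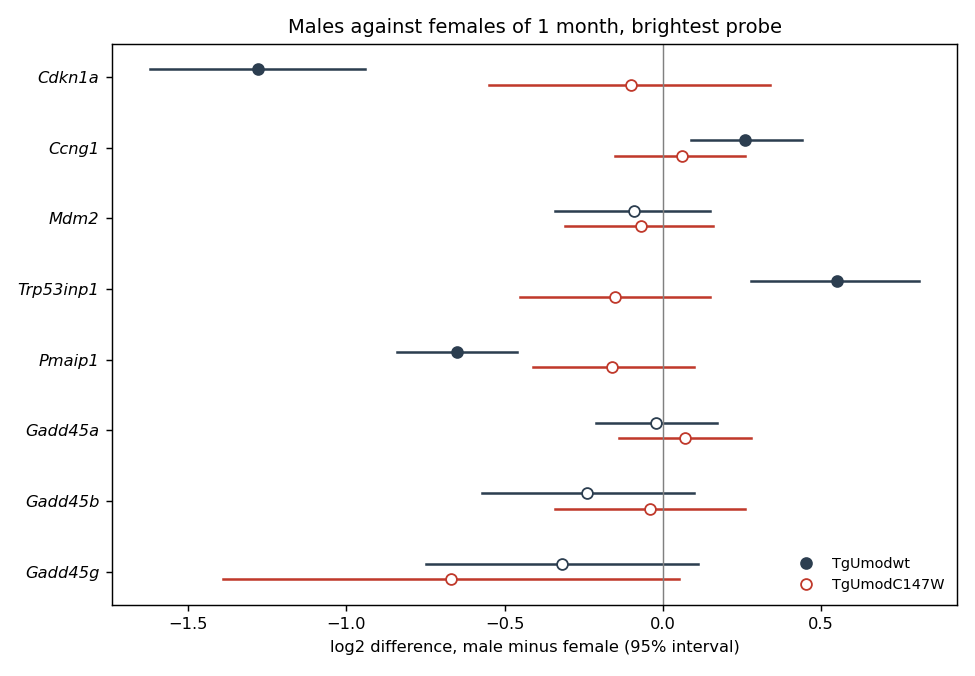
Log2 difference between males and females of 1 month within TgUmodwt and within TgUmodC147W mice for the brightest probe of each gene, with 95% intervals; filled points passed an adjusted p of 0.05. In TgUmodwt mice Cdkn1a is at -1.28, Pmaip1 at -0.65, Ccng1 at 0.26 and Trp53inp1 at 0.55, and in TgUmodC147W mice no gene passed.

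The next question was how the genes changed from 1 to 2 months in females. Cdkn1a alone of the 8 genes passed, in both genotypes, beside 3.46% of 9756 genes in TgUmodwt (1.83% lower) and 13.2% of 10012 genes in TgUmodC147W mice (6.98% lower, or 4.39% without the array lacking Xist). In TgUmodwt it measured 8.39, 8.55, 8.38 and 8.96 at 2 months, and every value was below the lowest of 1 month (9.09). It fell by 0.75, 1.69-fold (SE 0.15; limma, adjusted p = 0.0223). In TgUmodC147W it measured 8.63, 8.92, 8.71 and 8.58 at 2 months and fell by 0.63, 1.54-fold (SE 0.17; adjusted p = 0.0334), with overlap at the lowest mutant of 1 month (8.86). Both calls were close to the threshold. In TgUmodwt 5 of 8 fits that left out 1 array lost it (adjusted p of up to 0.0648), and in TgUmodC147W 6 of 8 did (up to 0.0906), among them the fit without the array lacking Xist (-0.56, adjusted p = 0.0906). The F1 and F2 arrays also differed in intensity before normalisation, as given above, and the part of this in the values was not tested.

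The change with age did not differ between genotypes in any of the 8 genes (limma; 0 genes at an adjusted and 0 at an unadjusted p under 0.05), beside 1.3% of 10148 genes (0.722% without the array lacking Xist). For Cdkn1a the interaction was 0.13 (95% interval -0.37 to 0.63). Pmaip1 rose by 0.33 in TgUmodC147W (adjusted p = 0.0527, not passed), with all F2 values (7.82 to 8.11) above all F1 values (7.47 to 7.73), and differed by 0.21 in TgUmodwt (adjusted p = 0.484). Without the array lacking Xist the TgUmodC147W value was 0.37 (adjusted p = 0.0717). The other 6 genes differed by at most 0.39 in size in either genotype and did not pass.

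Across the 6 groups the mean level of Cdkn1a was ordered as TgUmodwt M1 (8.04 ± 0.30, SD, n = 4), TgUmodwt F2 (8.57 ± 0.27), TgUmodC147W F2 (8.71 ± 0.15), TgUmodC147W M1 (9.23 ± 0.36), TgUmodwt F1 (9.32 ± 0.22) and TgUmodC147W F1 (9.33 ± 0.36). The last 3 lay within 1 SD of each other, as did both F2 groups. The values of the lowest group overlapped those of TgUmodwt F2 (7.80 to 8.47 against 8.38 to 8.96). Over the 24 arrays, which share one normalisation and the 6 groups, the genes most like Cdkn1a among 10378 were Zfp608 and Gstm2 (r = 0.87), Bicd2 (0.86), Znrd1 and Amotl1 (0.84). Within groups these correlations were 0.46 to 0.67. The same description was not possible for Gdf15. Among the members, Cdkn1a ran against Ccng1 (r = -0.62) and Trp53inp1 (r = -0.61) over all arrays, but not within groups for Ccng1 (0.17; -0.27 for Trp53inp1). Gadd45a and Gadd45b had r = 0.28 over all arrays and 0.59 within groups.

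**Figure D4:**
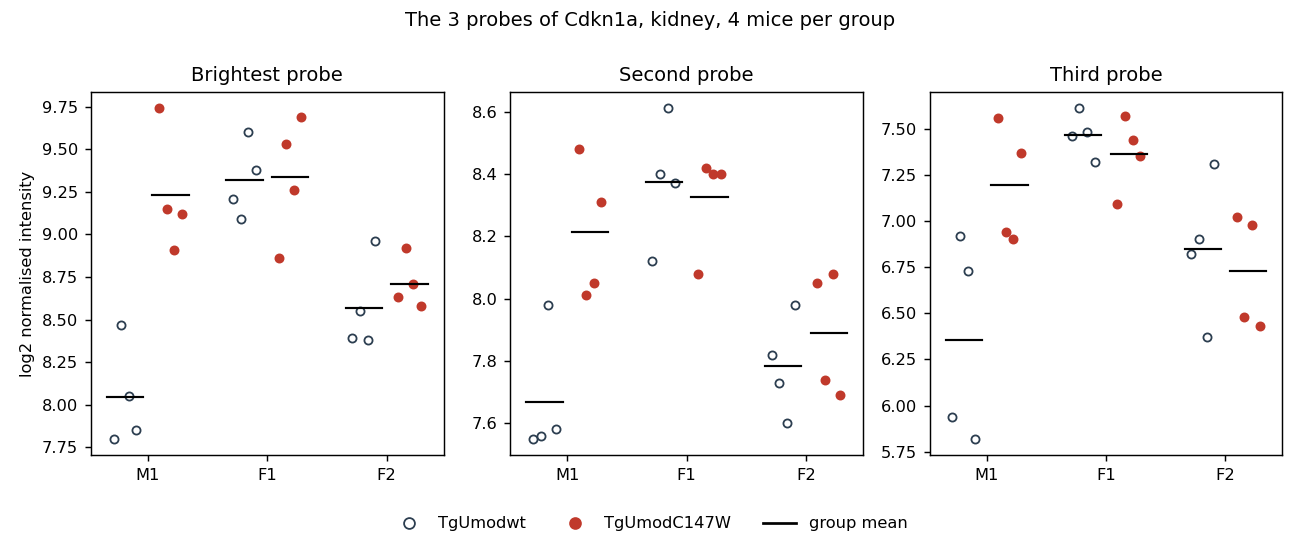
Log2 normalised intensity of the 3 Cdkn1a probes on 24 arrays, 4 mice per group, with open points for TgUmodwt, filled points for TgUmodC147W and lines for group means. On each probe TgUmodwt M1 is the lowest group of 1 month, and the F2 means lie below the F1 means.

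Further genes of the pathway were taken from lists by function, and their counts stand beside the shares of all genes that rose (21.9% in M1, 10.4% in F1 and 5.39% in F2) or fell (15.5%, 7.62% and 3.07%). Of a list of 11 genes, Trp53 (the gene of p53) and genes that stabilise or control p53, 7 were tested in M1. Of these 1 rose and 1 fell. Trp53 was not among the genes tested in any comparison. Usp7, which deubiquitinates MDM2 and p53, rose by 0.26 (adjusted p = 0.0274) and the checkpoint kinase Chek2 fell by 0.44 (adjusted p = 0.0066). None of 6 in F1 and none of 5 in F2 passed (limma), and Usp7, the brightest, differed by 0.07 in F1 and by -0.23 in F2.

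Of 20 other p53 targets of arrest and repair, 14 were tested in M1, of which 1 rose and 3 fell (median 0.10, all genes 0.04). Rrm2b, the ribonucleotide reductase subunit induced by p53, fell by 0.68 (SE 0.10; adjusted p = 0.000575), Plk2 fell by 0.41 (adjusted p = 0.0212) and Phlda3, an AKT repressor, rose by 0.51 (adjusted p = 0.0036). The remaining call, Sesn2 (-0.30, adjusted p = 0.0188), is, like other genes below that are marked as remaining, named after its value was seen. Rrm2b thus went the way of Ccng1 and against Cdkn1a. Phlda3 was also the 1 riser of 14 in F1 (0.54, adjusted p = 0.0306), and did not pass without the array lacking Xist (0.41, adjusted p = 0.0592). In F2 the 1 riser of 12 was Ckap2 (adjusted p = 0.000859), which was not above background in the controls (mean 5.28) and was detected on 1 of 4 mutant arrays (mean 6.31).

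Of 13 other p53 targets of cell death, 11 were tested in M1, of which 2 rose and 3 fell. The falls were led by Apaf1, the scaffold of the apoptosome (-0.97, SE 0.11; adjusted p = 6.14e-05), with Pidd1 (-0.55, adjusted p = 0.00142) and the receptor gene Eda2r (adjusted p = 0.0014), which was detected on 4 of 4 control arrays (mean 6.77) and 1 of 4 mutant arrays (mean 6.23). The remaining calls were the rises of Dram1 (0.41, adjusted p = 0.00397) and Siva1 (0.37, adjusted p = 0.0061). In F1 and F2 none of 11 passed (limma), the brightest, Ei24, being at -0.04 and 0.02. The male and female differences of Apaf1 differed by -1.06 (adjusted p = 0.000521; -1.03 and 0.00149 without the array lacking Xist), and in controls Apaf1 was higher in males by 1.06 (adjusted p = 4.05e-05). Of the other BCL2 family genes, 1 of 12 rose and 1 fell in M1, 2 of 11 rose and 2 fell in F1, and 1 of 11 rose and 1 fell in F2. Bid, a BH3-only activator, was the one lower in all 3, with log2 differences of -0.33, -0.68 and -0.32 (adjusted p = 0.0179, 0.00324 and 0.04). Bok, a pore-forming member, rose by 0.41 in M1 and 0.46 in F1 (adjusted p = 0.0233 and 0.0146). Bik fell by 0.46 in F1 (adjusted p = 0.045) and Bmf rose by 0.55 in F2 (adjusted p = 0.0199), though it was detected on 1 of 4 control arrays, and was the remaining riser in F1 (0.44, adjusted p = 0.0317). When the array lacking Xist was left out, Bid (-0.65, adjusted p = 0.0123), Bok (0.44, adjusted p = 0.0455) and, in addition, Bcl2l11 (0.52, adjusted p = 0.0473) passed in F1, while Bik (-0.33, adjusted p = 0.0811) and Bmf (0.40, adjusted p = 0.0906) did not.

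Among 6 other inhibitors of cyclin-dependent kinases, 2 rose and 1 fell in M1, and 1 of 5 rose in F1 and in F2. Cdkn2b, which restrains CDK4 and CDK6 and is induced by TGF-beta, rose in each comparison, by 1.32 in M1 (SE 0.13; adjusted p = 2.63e-05), 0.93 in F1 (adjusted p = 0.000816; 0.86 and 0.00274 without the array lacking Xist) and 0.49 in F2 (adjusted p = 0.017). Cdkn1a and Cdkn2b thus both rose in males, while in females Cdkn2b rose and Cdkn1a had log2 differences of 0.01 and 0.14. Cdkn1c rose by 0.53 (adjusted p = 0.000666) and Cdkn2c fell by 0.46 (adjusted p = 0.00129) in M1.

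**Figure D5:**
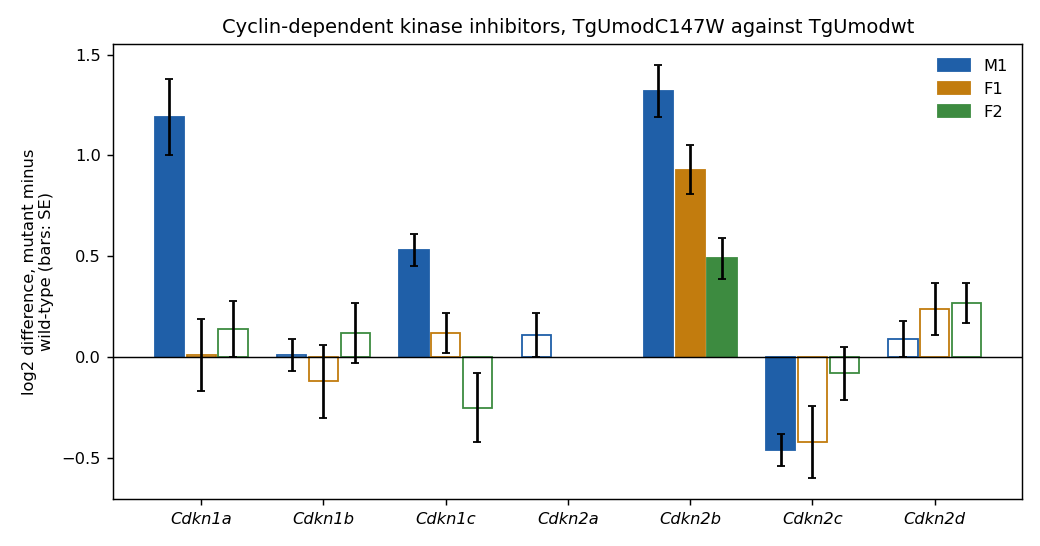
Log2 difference between TgUmodC147W and TgUmodwt for Cdkn1a and 6 other inhibitors of cyclin-dependent kinases in M1, F1 and F2, with bars for the SE; filled columns passed an adjusted p of 0.05, and a column is missing where the gene was not detected in that comparison. Cdkn2b is higher in all 3 comparisons (1.32, 0.93 and 0.49) and Cdkn1a in M1 (1.19).

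Of 18 cyclins, kinases and proliferation genes, 3 of 12 rose in M1, close to the share of all genes, 4 of 10 in F1 and 3 of 10 in F2, and none fell. Their median differences were 0.17, 0.35 and 0.15, beside 0.04, 0.01 and -0.01 for all genes. In M1 these were Ccnd2 (0.60, adjusted p = 0.00073), Cdk1 (0.51, adjusted p = 0.000625) and Cdk4 (0.26, adjusted p = 0.0353). In F1 Mcm2, a subunit of the replicative helicase, rose by 0.80 (adjusted p = 0.00293), Top2a by 0.82 (adjusted p = 0.0171) and Cdk2 by 0.37 (adjusted p = 0.0306), the remaining riser being Cdk4 (0.34, adjusted p = 0.0441). Without the array lacking Xist 1 of the 10 passed, Mcm2 (0.70, adjusted p = 0.00722), while Top2a (0.75, adjusted p = 0.0524), Cdk2 (0.30, adjusted p = 0.0845) and Cdk4 (0.31, adjusted p = 0.113) did not. In F2 Birc5 rose by 0.73 (adjusted p = 0.00434, detected on 2 of 4 control arrays), and Cdk1 and Top2a, not above background in the controls, were at least 1.49-fold and 1.16-fold higher (adjusted p = 0.00146 and 0.00391), against the lowest signal detected on each control array. With age, 5 of 9 tested genes fell in TgUmodwt and 6 of 10 in TgUmodC147W females (medians -0.41 and -0.63, all genes 0.00 and -0.02). Birc5, a survival and mitosis gene, fell by 1.76 in TgUmodwt and fell by 1.67 in TgUmodC147W females. Mcm2 fell by 0.67 and fell by 1.12 (adjusted p of at most 0.0221), and the remaining calls were Cdk1, Cdk2 and Top2a in both genotypes and Ccnd1 in TgUmodC147W, which did not pass without the array lacking Xist (adjusted p = 0.0531), whereas the other 5 did. Cdkn1a and these genes thus fell over the same interval. The part of one in the other was not tested.

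Of 8 kinases that Gadd45 proteins engage, or that lie downstream, 6 were tested in each comparison. In M1 Map2k6, which phosphorylates p38, fell by 1.23 (SE 0.09; adjusted p = 3.21e-06), in F1 none passed (limma; the brightest, Map2k3, at 0.15), and in F2 Map3k5 fell by 0.64 (adjusted p = 0.011). Of 10 stress response genes under ATF4 or related drivers, which also act on several members, 7 of 9 rose and 1 fell in M1, 3 of 10 rose in F1 and 5 of 10 in F2 (medians 0.55, 0.34 and 0.60). Asns, the asparagine synthetase, rose by 0.63, 1.08 and 1.46 in M1, F1 and F2 (adjusted p = 0.00627, 0.0024 and 0.00119). Atf4 rose by 0.62 in M1 (adjusted p = 0.00235), Atf5 by 0.54 in F1 (adjusted p = 0.0288) and 1.38 in F2 (adjusted p = 0.000251), and Trib3, not above background in F2 controls, was at least 1.97-fold higher there (adjusted p = 3.44e-05). Atf3 was not above background in controls and detected on 1 of 4 mutant arrays in M1 and in F1 (adjusted p = 0.000666 and 0.038). The remaining calls were Atf5, Ddit3, Ddit4 and Ppp1r15a in M1, which rose by 0.39 to 0.55, Sesn2, which is also on the list of arrest genes and fell, and in F2 Chac1 (1.35, adjusted p = 0.000295) and Atf3 (adjusted p = 0.0146, detected on 1 of 4 mutant and no control arrays). Without the array lacking Xist 1 of 9 rose in F1, Asns (0.93, adjusted p = 0.00421), while Atf5 did not pass (0.47, adjusted p = 0.0826) and Atf3 was not detected. Of the 10 genes 2 passed the interaction with sex (limma), beside 7.71% of all genes. These were Atf4 (0.81, adjusted p = 0.0448) and Ddit3 (1.02, adjusted p = 0.0214), or 0.88 and 1.1 without that array. In females neither passed, Atf4 being at -0.18 in F1 and -0.14 in F2 and Ddit3 at -0.47 and -0.33. In control males of 1 month 4 of 8 genes were lower than in females and 1 higher, beside 26.8% of all genes. Atf4 was at -0.88 and Ddit3 at -0.84 there. In F2 Asns, Atf5, Chac1, Trib3 and Atf3 thus passed the test as higher, while Atf4, Ddit3, Ddit4, Ppp1r15a and Sesn2 of the same list did not pass. Cdkn1a, Gadd45a, Gadd45b and Gadd45g did not pass there either. The part of these drivers in the values of the members was not tested.

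Of 8 genes of the GDF15 receptor and TGF-beta ligands, 3 of 6 rose in M1, 3 of 6 in F1 and 1 of 5 in F2, and none fell (medians 0.30, 0.27 and 0.19). Tgfb1 rose by 0.41 in M1 (adjusted p = 0.0201) and Bmp4 by 0.33 in F1 (adjusted p = 0.03). Inhba, which encodes the activin A subunit, was not above background in any control group and was detected on 1 of 4 mutant arrays in M1 and 3 of 4 in F1 and F2 (adjusted p = 0.00107, 0.00118 and 0.0146). Tgfb3 was likewise not above background in controls and detected on 1 mutant array in M1 and 3 in F1 (adjusted p = 0.000534 and 0.0284). Without the array lacking Xist Inhba was the 1 gene of 6 that passed in F1 (adjusted p = 0.00121), and Bmp4 (0.34, adjusted p = 0.0679) and Tgfb3 (adjusted p = 0.058) did not.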

How the data were processed

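Each of 24 kidney RNA samples had 1 bead array (Illumina MouseWG-6 v2.0). The authors deposited non-normalized probe intensity values with a detection p-value per probe and array, and a table of normalised intensity values that, per the methods, GenomeStudio made by cubic spline; no aligner or genome build applies. Both tables were matched by rank within arrays, since 13666 of 45281 probes carried different identifiers, and a probe was named only where both identifiers gave the same gene (34043 probes). Identifiers were permuted within genes, so probes are described by brightness. Intensities were corrected with the detection p-values and quantile normalised (neqc, offset 16, limma 3.58.1 in R 4.3.3), which understates changes of dim probes. Probes detected (p under 0.01) on at least 1 array of a comparison entered lmFit and eBayes on the arrays of that comparison, with Benjamini-Hochberg adjustment over all of them. A gene is its brightest probe. Named were all members, up to 3 called genes of a further list per mutant comparison with the largest difference (else the brightest gene), and the 5 genes most like Cdkn1a. The members and lists were chosen with earlier results of these data known. Gene names followed RefSeq GRCm38.p6, and promoter windows came from the same build. Deviations of same-numbered TgUmodwt females of 1 and 2 months had r of 0.104 to 0.327, a pairing taken from the numbers in the titles. Differently numbered ones had r of -0.299 to 0.348, and whether the mice were paired is not known. With that pairing as a block Cdkn1a kept its fall (limma, adjusted p = 0.0224). Precision is limited by 4 arrays per group. Scripts were tested on simulated data.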

Additional observations from a re-analysis of the deposited data

Results flagged for a closer look

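The response to mutant against wild type uromodulin differed between males and females of 1 month, by the interaction test, in Cdkn1a (1.18), Pmaip1 (0.49) and Trp53inp1 (-0.70), on the log2 scale and as male minus female difference. Cdkn1a rose in males alone of the 2 sexes past the test, Pmaip1 fell in females and Trp53inp1 fell in males.

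In 1 of the 48 sets of 4 arrays examined, the lowest sample stood apart from the rest by Dixon's test: Trp53inp1 was 9.69 in TgUmodC147W F1 replicate 2, against 9.99 to 10.03 in the other 3 mice. Chance marks about 1 set in 20. It is the array on which Xist was at the level of the males. Without it the F1 difference of Trp53inp1 was 0.35 in place of 0.27 (adjusted p = 0.143 and 0.207).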

How the results depend on the processing

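No member changed direction in a comparison in which it or the alternative passed the test, while 75 of 1495 values changed sign without passing on either side. The counts of genes called kept within 1.5 times in 94 of 108 settings other than leaving out arrays. In F1, 2 genes passed with arrays scaled to a common median and in one fit over all 24 arrays, against 1. In F2, 1 passed with the authors' normalised values, with no background correction, with an offset of 50, in one fit over all arrays and with a trended and robust prior, against 0; this was Pmaip1. Without the filter on dim probes, the fall of Cdkn1a with age kept its size but missed the threshold in both genotypes (0 genes passed, against 1 and 1; -0.75 in TgUmodwt, adjusted p = 0.0567, and -0.63 in TgUmodC147W, adjusted p = 0.0738) and the interaction with sex kept 1 gene of 3. In the F2 against F1 comparison of TgUmodC147W mice 2 passed when detection in 4 arrays was required, in one fit over all arrays and with the mean of a gene's probes. With the replicate block, where numbers are shared without evidence of pairing, the interaction with sex kept 1 gene of 3 (Cdkn1a), and no other count moved past 1.5 times. Leaving out single arrays gave 1 to 2 genes in F1, 0 to 1 in F2, 0 to 1 for age in TgUmodwt, 0 to 2 for age in TgUmodC147W, 1 to 3 for the interaction with sex and 3 to 4 in M1. The share of all genes called moved with single arrays too, to 11.9 to 18.0% in F1, 5.01 to 8.83% in F2 (lowest without TgUmodC147W F2 replicate 3), 1.85 to 3.02% for age in TgUmodwt (lowest without TgUmodwt F1 replicate 2), 8.52 to 13.0% for age in TgUmodC147W (lowest without TgUmodC147W F2 replicate 1) and 0.572 to 3.01% for the interaction with age. Of the genes of further lists that passed, 21 of 30 in M1, 6 of 16 in F1 and 12 of 14 in F2 passed in every fit that left out 1 array and tested them, and none changed sign; most often lost were Cdk4 (7 of 8 fits) and Usp7 (6 of 8) in M1, Bmp4 (7 of 8) in F1 and Bid (7 of 8) in F2. Names from either table alone changed no count. A slide block was not run, since no slide is given in the sources used here. Scaling to a common median moved the median of all genes between TgUmodwt females of 1 and 2 months from 0.00 to 0.15, and the M1 calls from 2221 higher and 1566 lower to 2743 and 1102; Cdkn1a kept its direction. Dim probes such as that of Gadd45b limit the size of its difference, which was 0.34 to 0.77 in M1 over the alternatives.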
